A study of Rattus norvegicus with 31 samples.

Results

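White adipose tissue (WAT) of rats on a high-fat diet (H-group) was compared here with WAT of rats on a low-fat diet (L-group). The comparison was made on every probe set, other than the array's controls, whose log2 value varied by more than 0.01 between the highest and the lowest of the 9 WAT arrays. These were 5007 of 31042 probe sets. The other 26035 held practically 1 value on all arrays and can show no difference. The smallest range kept was 0.0101 log2 units and the largest left out was 0.00999. Of the 5007 probe sets, 3900 carried 1 gene symbol, 139 carried several and 968 carried none, and they stood for 3355 genes.

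All animals were male Wistar rats, 3 weeks old on arrival, which took chow for 1 week. The 4 rats of the H-group (rats H12, H13, H15 and H16) then received a diet with 35% of its energy as carbohydrate and 45% as fat, and the 5 rats of the L-group (rats L1 to L5) a diet with 65% as carbohydrate and 15% as fat. Soybean oil made the difference in fat, while the amount of lard was the same, so the fatty acid profile of the diets differed too. After 1 week of free feeding on these diets, the H-group was given the energy that the L-group ate, over 9 weeks. Every rat was fasted for 17 h before dissection. The comparison thus asks how gene expression responds when fat replaces carbohydrate at equal energy. RNA of 1 WAT sample per rat was hybridised to an Affymetrix rat genome array. Which fat depot was taken is not given in the sources used here. The diet richer in fat was also poorer in carbohydrate and had another fatty acid profile, so the effects of these changes cannot be told apart. Brown adipose tissue (BAT) and liver of the same rats were measured as well, and the liver also in rats of a moderate-fat M-group (60% carbohydrate, 20% fat).

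White fat stores energy as triacylglycerol (TG) and can also build fatty acids from glucose. In this route, called de novo lipogenesis, citrate leaves the mitochondrion, is split to acetyl-CoA by ATP citrate lyase (Acly), and is carboxylated by acetyl-CoA carboxylase (Acaca) and joined into palmitate by fatty acid synthase (Fasn), after which the elongase Elovl6 and stearoyl-CoA desaturase (Scd) give longer and monounsaturated chains. The genes of this route are known to be driven by the transcription factors SREBP-1c and ChREBP under insulin and glucose and to be held down by polyunsaturated fat.

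Among the 9 arrays, rat H15 stood apart. Over the varying probe sets, its mean correlation with the other arrays was 0.938, against 0.952 to 0.960 for the other 8 rats. Its array weight in limma was the lowest, at 0.515. Transcripts of mesothelial cells, the sheet that covers visceral fat, averaged 1.76 log2 units above their mean over the rats in H15, against -1.34 to 0.08 in the other H rats and -0.66 to 0.89 in the L rats. The values below include this rat, and several are also given without it. Of the white adipocyte markers, Adipoq, Lep, Lipe and Cfd varied between arrays, while Plin1 (12.4), Cidec (12.9) and Fabp4 (13.8) stood at high constant log2 values. The brown adipocyte marker Ucp1 (6.46), the T cell marker Cd3d (6.95) and the epididymal marker Adam7 (6.62) were constant at values below the array medians of 7.17 to 7.18. Other T and NK cell markers were constant above these medians, namely Cd4 (7.52), Prf1 (7.42) and Cd3e (7.23). The brown adipocyte marker Cidea varied, with a log2 fold change of 0.26 and overlapping groups. Around its mean it ran from -0.66 to 0.88 in the H rats and from -0.56 to 0.25 in the L rats.

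No probe set passed limma's test at a Benjamini-Hochberg adjusted p under 0.05 over the 5007 probe sets, the smallest adjusted p being 0.326, for Scd. At an unadjusted p under 0.05, 214 probe sets were higher (4.27%) and 144 were lower (2.88%) in the H-group. The groups did not overlap in 83 probe sets on the higher side (1.66%) and in 54 on the lower side (1.08%). At an unadjusted p under 0.01 there were 111 probe sets in all (2.22%). Rank products, the method the study used for its differentially expressed genes, called 12 probe sets higher (0.24%) and 27 lower (0.539%) at a false discovery rate under 0.05. With the constant probe sets included, it called 235 (0.757%) and 337 (1.09%) of 31042. The limma p-values measure the spread between the rats of 1 feeding experiment. The false discovery rates of rank products come from permuting values over probe sets within each array and do not measure that spread. The larger count on the higher side depended on the scaling: 61.2% of log2 fold changes were above 0 in the values as deposited, against 44.9% after centring each array on its median, 49.9% after a second quantile normalization and 53.7% without rat H15. Large differences lay mainly on the lower side, where 18 probe sets (0.359%) had a log2 fold change of -1 or beyond, against 5 (0.0999%) at 1 or above. The mean distance (1 minus Pearson correlation) between arrays of different diets exceeded that within diets by 0.00266 (one-sided exact permutation test over all splits of the 9 arrays, p = 0.183), an excess that did not pass the test. It was 0.00715 without rat H12 (one-sided exact permutation p = 0.0357) and -0.000198 without rat L2 (p = 0.457, same exact test).

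**Figure D1:**
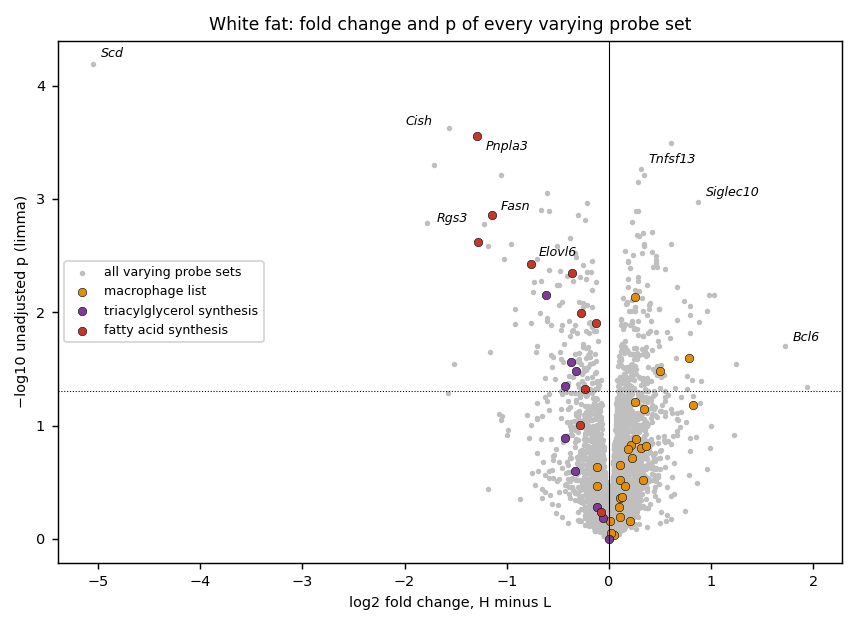
Log2 fold change of the H-group over the L-group (horizontal) against -log10 of the unadjusted limma p (vertical) for the 5007 varying WAT probe sets, each a point. Scd stands far to the left at -5.05. Members of the fatty acid synthesis, TG synthesis and macrophage lists are coloured, and some genes are named.

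The largest difference in WAT was that of Scd, the desaturase that makes oleate and palmitoleate. Its log2 level was 10.50, 7.25, 10.58 and 8.90 in rats H12, H13, H15 and H16, against 14.27, 14.67, 13.40, 14.91 and 14.51 in rats L1 to L5. Every H rat thus lay at least 2.83 log2 units below the lowest L rat, and the H rats also spread more widely (SD 1.57, n = 4) than the L rats (SD 0.581, n = 5). The log2 fold change was -5.05 ± 0.69 (SE), a 33.0-fold lower level, with a limma adjusted p of 0.326 over all 5007 probe sets. Rank products called it lower. Its adjusted p was 0.0143 when only the 2550 probe sets with a range above 0.5 were tested, but that range is taken over both diets, so the difference itself helps a probe set to pass, and this p is no support.

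**Figure D2:**
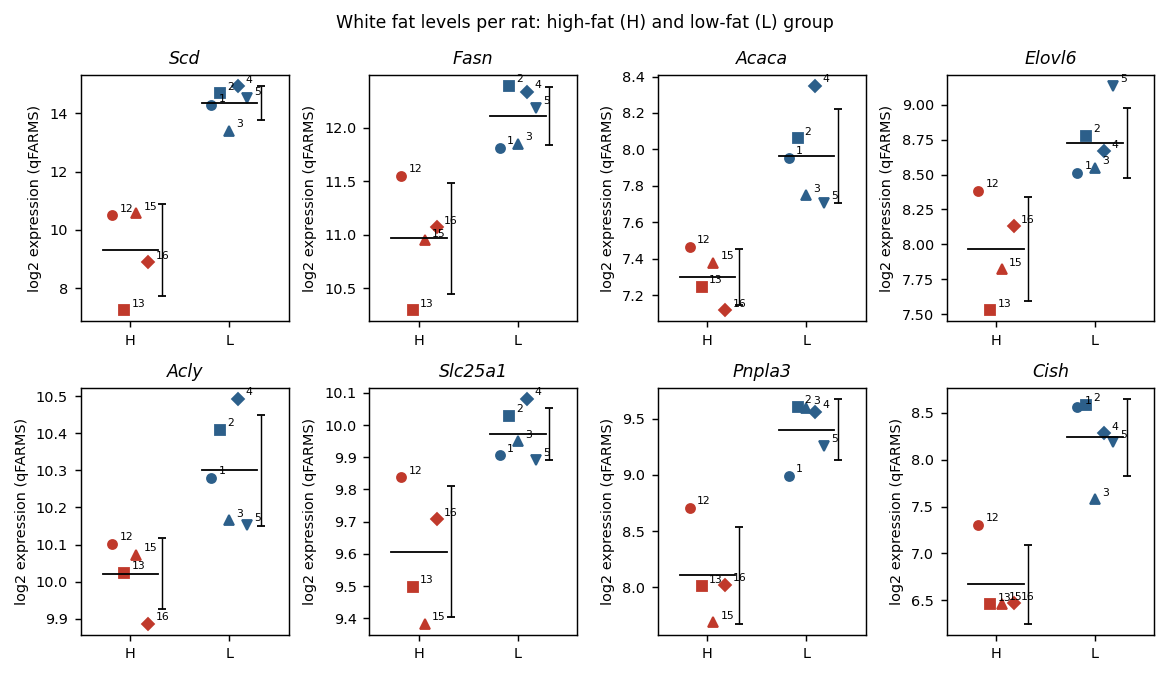
Log2 level in each WAT sample for genes of lipogenesis and its neighbours, with the H rats to the left of the L rats for each gene and horizontal lines at the group means. The gap between the groups is widest for Scd, whose means were 9.31 in the H-group and 14.4 in the L-group.

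The fatty acid synthesis list held 14 genes, of which 10 varied in WAT, and all 10 had a lower mean in the H-group. In 7 of them no H rat reached any L rat, where 1.01% of all 3355 genes were separated in that direction, and 8 had an unadjusted p under 0.05 on the lower side, against 2.68% of all genes. Rank products called 4 of them lower on the brightest probe set of each gene (Fasn, Elovl6, Pnpla3 and Acaca), against 0.537% of all genes. This list, like the others, was drawn up with earlier results of these data known, and it includes the lipid-droplet gene Pnpla3. The shares are therefore a description and not a test of the list. The median log2 fold change of the 10 genes was -0.33, against 0.026 over all genes, and it lay between -0.439 and -0.293 when each rat was left out in turn. All 10 stayed lower under both other scalings. Acacb, Mcat, Mlxipl (the ChREBP gene) and Mlx held constant values and can show no difference. In bulk tissue fewer adipocytes and less RNA per adipocyte cannot be told apart. The 4 varying white adipocyte markers had log2 fold changes of -0.13 ± 0.03 (Adipoq, without overlap), -0.10 ± 0.10 (Lipe), 0.07 ± 0.13 (Cfd) and 0.42 ± 0.35 (Lep), and their part in the values of the list was not tested.

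Fasn, which joins malonyl-CoA units into palmitate, had log2 levels of 11.55, 10.30, 10.95 and 11.07 in rats H12, H13, H15 and H16, against 11.81, 12.39, 11.85, 12.33 and 12.18 in rats L1 to L5. No H rat reached the L rats, with rat H12 nearest to the L rats. The log2 fold change was -1.15 ± 0.24 on this probe set and -1.78 on the second Fasn probe set, and both were called lower by rank products.

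Acaca, the enzyme of the committed step, had log2 levels of 7.47, 7.25, 7.38 and 7.12 in the H rats in the same order, against 7.95, 8.06, 7.75, 8.35 and 7.71 in the L rats. Again no H rat reached the lowest L rat. Its log2 fold change was -0.66 ± 0.14 on this probe set, which rank products did not call, and -1.28 ± 0.30 on a second, brighter one, which they called lower.

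Elovl6, which lengthens palmitate to stearate, stood at 8.38, 7.53, 7.82 and 8.13 in the H rats, against 8.51, 8.78, 8.55, 8.67 and 9.14 in the L rats. The groups were separated by 0.13 log2 units between rats H12 and L1, and the log2 fold change was -0.76 ± 0.19. Its second probe set gave -0.74, with groups that overlapped.

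Smaller differences without overlap were found for the mitochondrial citrate carrier Slc25a1 (-0.36 ± 0.09), for Acly (-0.28 ± 0.08) and for acetoacetyl-CoA synthetase Aacs, which routes ketone bodies to lipid (-0.13 ± 0.04). Acss2, which activates acetate, had a log2 fold change of -0.24 ± 0.10 with overlapping groups. Thrsp (Spot 14), a lipogenic accessory protein, ran from 12.72 to 13.49 in the H rats and from 13.26 to 13.40 in the L rats, so that H12 lay above every L rat and H13 and H15 lay far below. Srebf1, which codes for SREBP-1c, had overlapping groups: it ran from 10.12 to 10.66 in the H rats and from 10.33 to 10.76 in the L rats, with a log2 fold change of -0.08 ± 0.13 that became 0.04 without rat H15.

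Pnpla3 (adiponutrin), a lipid-droplet acylhydrolase whose transcript is known to fall on fasting, was separated as well. Its log2 levels were 8.71, 8.01, 7.69 and 8.02 in the H rats, against 8.99, 9.61, 9.60, 9.56 and 9.26 in the L rats. The groups did not overlap on either of its probe sets, the log2 fold changes were -1.30 ± 0.22 and -1.06, and rank products called both lower.

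The sequences before the starts of 3 of these genes are shown because the members of the list had lower values together and because the CCAAT box, bound by the factor NF-Y, is a known element beside SREBP sites of lipogenic promoters. They are the 250 bases before the RefSeq start in build GRCr8, with the letters CCAAT or their reverse complement ATTGG in capitals: Pnpla3 at chr7:117173278-117173527 on the plus strand, Acly at chr10:85963632-85963881 on the minus strand and Slc25a1 at chr11:96559804-96560053 on the plus strand.
Pnpla3 promoter: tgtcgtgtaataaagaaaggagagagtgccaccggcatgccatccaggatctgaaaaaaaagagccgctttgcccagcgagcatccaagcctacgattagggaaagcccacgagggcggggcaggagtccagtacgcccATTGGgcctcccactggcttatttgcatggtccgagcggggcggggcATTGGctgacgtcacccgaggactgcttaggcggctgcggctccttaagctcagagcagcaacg
Acly promoter: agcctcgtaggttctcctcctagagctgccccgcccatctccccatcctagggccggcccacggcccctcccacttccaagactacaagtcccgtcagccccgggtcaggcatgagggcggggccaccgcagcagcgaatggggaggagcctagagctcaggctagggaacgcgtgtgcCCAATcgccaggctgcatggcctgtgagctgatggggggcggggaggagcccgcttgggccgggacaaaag
Slc25a1 promoter: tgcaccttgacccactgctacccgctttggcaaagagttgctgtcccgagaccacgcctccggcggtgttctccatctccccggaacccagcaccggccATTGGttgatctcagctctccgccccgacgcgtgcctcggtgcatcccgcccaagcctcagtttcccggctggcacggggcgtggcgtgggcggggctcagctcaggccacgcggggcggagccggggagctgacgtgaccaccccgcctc

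The matches lie 111 and 64 bases before the start in Pnpla3, 71 bases before it in Acly and 151 bases before it in Slc25a1. Of the 10 varying members of the fatty acid synthesis list, 7 had a RefSeq window and 6 of these held CCAAT on either strand, against 34% of all 33469 windows of the same length. Pnpla3, with a pair of matches, shares that with 9.42% of windows. A match says only that these letters stand in the window.

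Beyond Scd and Elovl6, the desaturation and elongation list held 5 other varying genes. Hsd17b12, the ketoacyl reductase of elongation, had a log2 fold change of -0.25 ± 0.09 with an unadjusted p under 0.05 and overlapping groups. Fads3, Elovl5, Hacd3 and Scd2 lay between 0.04 and 0.09, with wide overlap. Scd2, a paralogue of Scd, ran from 6.94 to 8.20 in the H rats and from 7.03 to 8.23 in the L rats, so the large difference of Scd was not seen on its probe set. Insig1, which holds SREBPs in the endoplasmic reticulum, had a log2 fold change of -0.46 ± 0.15, with overlap. The 9 varying genes of cholesterol synthesis showed 3 higher and 6 lower means, none with an unadjusted p under 0.05.

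NADPH for lipogenesis is supplied by malic enzyme and the pentose phosphate route. Malic enzyme Me1 had log2 levels of 9.97, 9.02, 9.20 and 9.26 in rats H12, H13, H15 and H16, against 9.87, 10.44, 9.62, 10.43 and 10.28 in rats L1 to L5. Rat H12 lay within the range of the L rats and the other H rats lay below it. The log2 fold change was -0.76 ± 0.24, and a second probe set at -0.92 was called lower by rank products. Transaldolase Taldo1 showed the same arrangement, at 10.97 in H12 and 10.67 to 10.70 in the other H rats, against 10.90 to 11.11 in the L rats (log2 fold change -0.26 ± 0.08). The other 5 varying genes of the list, Tkt, Nnt, Pgd, Idh2 and Idh1, lay between -0.13 and 0.05.

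Genes of TG synthesis had lower means too, but with overlap. All 9 varying members had a log2 fold change at or below 0, with a median of -0.33 (from -0.476 to -0.252 with each rat left out), 4 had an unadjusted p under 0.05, against 2.68% of all genes on the lower side, and none was separated, against 1.01%. Agpat3, an acyltransferase of the glycerol phosphate route, was at 9.83, 9.17, 9.29 and 9.44 in the H rats, against 9.57, 10.22, 10.20, 10.05 and 10.18 in the L rats (-0.61 ± 0.17). Here rats H12 and L1 crossed, and all others were apart. Glycerol-3-phosphate dehydrogenase Gpd1 (-0.37 ± 0.14), the final acyltransferase Dgat1 (-0.32 ± 0.13) and pyruvate carboxylase Pc (-0.43 ± 0.18), which feeds glyceroneogenesis, were the others with an unadjusted p under 0.05. Dgat2, the isoform that takes newly made fatty acids, was at 11.37 to 12.03 in the H rats and 11.43 to 11.87 in the L rats (0.00 ± 0.15). Lpcat3, which places polyunsaturated chains into phospholipids, was outside the list and did not overlap, at 9.31 to 9.56 in the H rats and 9.65 to 9.84 in the L rats (-0.30 ± 0.06).

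Genes for the breakdown of TG and fatty acids had medians nearer to 0. The lipolysis and lipid droplet list split into 5 higher and 5 lower means with a median of -0.02, against 2 higher and 8 lower after median centring and 4 higher and 6 lower after a second quantile normalization. The median lay between -0.0955 and -0.0055 with each rat left out. Abhd5, the co-activator of adipose triglyceride lipase, was the 1 member with an unadjusted p under 0.05 (-0.29 ± 0.12). Adipose triglyceride lipase itself (Pnpla2), lipoprotein lipase (Lpl), Plin1 and Cidec held constant values. In mitochondrial beta-oxidation 6 of 18 genes had higher and 12 lower means (median -0.04, from -0.122 to 0.0278 with each rat left out), with 4 higher and 14 lower under either other scaling. Eci1 alone had an unadjusted p under 0.05 (-0.47 ± 0.20). Cpt1a, which controls entry of fatty acids into mitochondria, ran from 9.12 to 9.68 in the H rats and from 8.78 to 9.42 in the L rats (0.28 ± 0.15). Oxidative phosphorylation had 21 of 26 members on the lower side, 26 after median centring and 25 after a second quantile normalization, with a median of -0.02 (from -0.0838 to 0.0072 with each rat left out) and no member with an unadjusted p under 0.05.

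**Figure D3:**
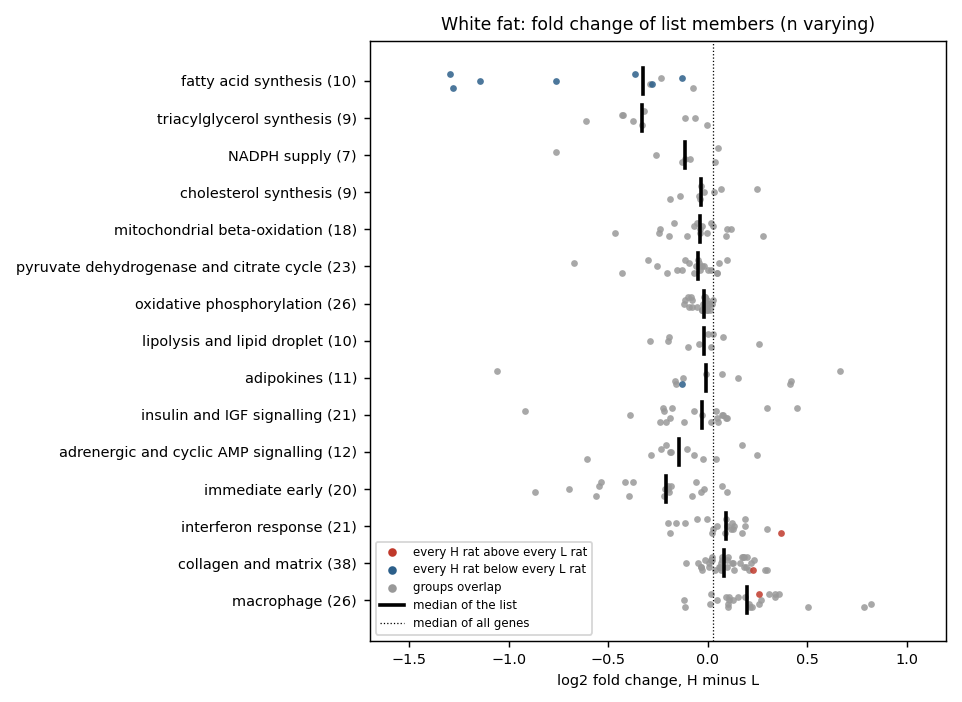
Log2 fold change of the H-group over the L-group for every varying member of each gene list, each a point, with the median of the list as a bar. The lists of fatty acid synthesis and TG synthesis lie to the left of 0, with medians of -0.33 each, and the macrophage list lies mostly to the right, with a median of 0.20.

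The step between glycolysis and the citrate cycle held 5 genes with an unadjusted p under 0.05, all on the lower side, among 23 varying genes (17 lower and 6 higher means), where 2.68% of all genes had such a p on that side. The median was -0.05, from -0.147 to -0.0172 with each rat left out. Mpc1, a subunit of the mitochondrial pyruvate carrier, was at 11.31, 10.44, 10.55 and 10.61 in rats H12, H13, H15 and H16, against 11.25, 11.56, 11.23, 11.60 and 11.35 in rats L1 to L5. Once more H12 lay among the L rats while the other H rats lay 0.6 or more below them, and the log2 fold change was -0.67 ± 0.18. The kinase Pdk1, which inactivates pyruvate dehydrogenase, had a log2 fold change of -0.30 ± 0.09, its catalytic subunit Pdha1 had -0.21 ± 0.08 and the phosphatase Pdp2, which reactivates it, had -0.26 ± 0.10, all with overlap. In glucose uptake and glycolysis, 9 of 14 varying genes had higher means, against 5 after median centring and 7 after a second quantile normalization. Hexokinase Hk1 (0.17 ± 0.05) and lactate dehydrogenase Ldha (0.19 ± 0.07) were the members with an unadjusted p under 0.05. Both were on the higher side, where 4.38% of all genes had such a p. Mccc2, a subunit of the carboxylase of leucine breakdown, was at 8.98 to 9.46 in the H rats and 9.47 to 9.93 in the L rats, without overlap (-0.51 ± 0.12).

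Cish, the inhibitor of cytokine receptor signalling that is induced through STAT5 by growth hormone and prolactin, gave the second smallest p in WAT. Its log2 levels were 7.31, 6.46, 6.46 and 6.47 in rats H12, H13, H15 and H16, against 8.56, 8.59, 7.58, 8.28 and 8.19 in rats L1 to L5. The groups did not overlap, and rats H13, H15 and H16 lay within 0.02 of each other. These 3 values were below the array medians of 7.17 to 7.18 and near the constant value of Ucp1 (6.46). Their closeness may belong to this low level, which was not tested. On the second, brighter probe set the same rats ran from 6.92 to 7.11. The log2 fold change was -1.57 ± 0.26 (2.96-fold lower, limma adjusted p = 0.375), a second probe set gave -1.72, and rank products called both lower.

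Bcl6, a transcriptional repressor whose gene is known to be turned down by STAT5, lay on the other side. It was at 10.50, 8.93, 10.26 and 10.03 in the H rats, against 7.45, 7.72, 8.12, 7.55 and 10.20 in the L rats. Rat L5 stood with the H rats and the other 4 L rats lay below all of them. The log2 fold change was 1.72 ± 0.60, it was 2.22 without L5, and rank products called it higher.

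A list on growth hormone and STAT5 was drawn up after these values had been seen, and is given as a description. Of its 12 genes, 5 varied: besides Cish and Bcl6, the prolactin receptor Prlr was at 6.79 to 7.06 in the H rats and 7.11 to 7.72 in the L rats without overlap (-0.51 ± 0.14), the growth hormone receptor Ghr was at 0.14 ± 0.20 and Igf1 at 0.05 ± 0.07, both fold changes with wide overlap. The Prlr values of every H rat and of rat L1 (7.11) lay below the array medians of 7.17 to 7.18, so its separation stood at a low level. Jak2, Stat5a, Stat5b, Socs1, Socs2, Socs3 and Igfals held constant values.

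The promoter of Cish is shown because it holds an unusual cluster of the letters TTCNNNGAA, the core bound by STAT5. The window is the 250 bases before the RefSeq start in GRCr8, chr8:116850719-116850968 on the plus strand, with the matches in capitals.
Cish promoter: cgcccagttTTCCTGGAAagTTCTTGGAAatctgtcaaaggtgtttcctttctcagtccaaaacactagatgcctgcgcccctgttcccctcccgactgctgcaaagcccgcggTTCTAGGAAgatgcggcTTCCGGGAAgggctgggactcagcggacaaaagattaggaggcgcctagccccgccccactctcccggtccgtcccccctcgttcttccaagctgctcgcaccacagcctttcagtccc

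The 4 matches lie 241, 230, 136 and 119 bases before the start. A palindromic core reads alike on both strands, so each place is counted once. Of all 33469 windows, 7.67% held at least 1 match, 0.418% at least 2 and 0.00598% at least 4, the last being 2 windows. Of the 5 varying genes of the growth hormone list, all had a window and 2, Cish and Prlr, held a match.

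Hormones and their signalling showed few differences. Adiponectin (Adipoq), among the brightest transcripts, ran from 13.20 to 13.23 in the H rats and from 13.30 to 13.39 in the L rats, a difference without overlap that was small (-0.13 ± 0.03). Leptin (Lep) overlapped widely, at 10.92, 10.26, 9.33 and 10.07 in the H rats, against 9.38, 10.17, 9.67, 9.13 and 10.30 in the L rats (0.42 ± 0.35, and 0.69 without rat H15). Serpina12 (vaspin) was called lower by rank products, yet its H rats split into a pair near 7.4 to 7.7 and a pair near 9.3 to 9.6, against 8.68 to 10.54 in the L rats (-1.06 ± 0.55, and -0.69 without rat H16). Of the 11 varying adipokines, 5 had higher and 6 lower means.

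Igf2, a growth factor of the insulin family, was at 7.48, 8.31, 8.88 and 8.71 in rats H12, H13, H15 and H16, against 9.41, 9.30, 9.38, 8.87 and 9.37 in rats L1 to L5. Only H15 and L4 touched, and the log2 fold change was -0.92 ± 0.27, which rank products called lower. The adaptor Shc1, which links receptors to Ras, had -0.19 ± 0.06, and the other 19 varying genes of insulin and IGF signalling had an unadjusted p above 0.05, with 10 higher and 11 lower means over the list. Among adrenergic and cyclic AMP genes, 9 of 12 were on the lower side, with adenylyl cyclase Adcy6 (-0.19 ± 0.07), the protein kinase A subunit Prkar2b (-0.11 ± 0.04) and the repressor Crem (-0.19 ± 0.08) at an unadjusted p under 0.05, and the beta-3 receptor Adrb3 at -0.61 ± 0.28, which became -0.37 without rat H15. Of all genes, 37.9% were on the lower side and 2.68% were so with an unadjusted p under 0.05.

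Rgs3, which shortens G-protein signals, was among the largest differences. It was at 9.46, 8.97, 8.53 and 8.96 in the H rats, against 10.34, 10.90, 9.64, 9.94 and 10.22 in the L rats, without overlap (-1.23 ± 0.27, called lower by rank products). Star, which brings cholesterol to the inner mitochondrial membrane, was at 7.48 to 8.32 in the H rats and 8.33 to 9.45 in the L rats (-1.03 ± 0.25, also called lower). Its second probe set gave -0.60, with overlap. Other genes without overlap on the lower side were Cachd1 (-0.61 ± 0.12), the adipocyte membrane protein Apmap (-0.38 ± 0.09) and the adhesion molecule Mcam (-0.23 ± 0.05).

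On the higher side, Siglec10, a sialic acid-binding receptor of leukocytes, was at 7.94, 8.78, 8.16 and 8.16 in rats H12, H13, H15 and H16, against 7.71, 7.31, 7.48, 7.16 and 7.25 in rats L1 to L5. All H rats lay above all L rats, the log2 fold change was 0.88 ± 0.18, and rank products called it higher. The leukocyte integrin chain Itgb2 (0.42 ± 0.09), the cytokine Tnfsf13 (APRIL, 0.31 ± 0.06), the interferon-induced factor Irf1 (0.37 ± 0.10) and the lysosomal mannosidase Man2b1 (0.30 ± 0.07) were separated as well. So were the autophagy gene Gabarapl1 (0.34 ± 0.06), the ubiquitin ligase Mycbp2 (0.29 ± 0.06), Serpinf1, which codes for pigment epithelium-derived factor (0.28 ± 0.06), and the axon guidance ligand Sema3e (0.98 ± 0.28). Metallothionein Mt2A, a metal-binding protein, was called higher by rank products at 9.51 to 9.96 in the H rats and 8.09 to 9.71 in the L rats (0.96 ± 0.29).

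**Figure D4:**
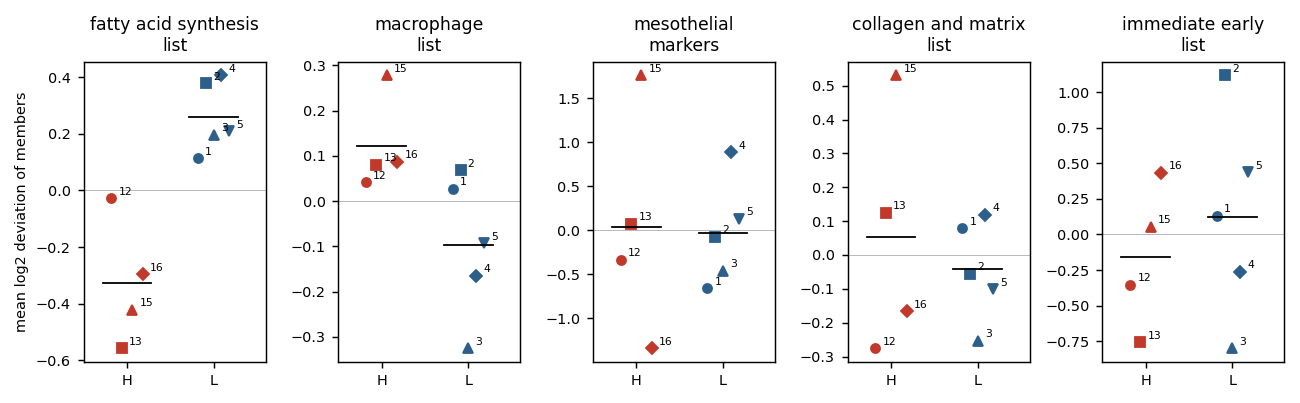
Mean level of each gene list in each WAT sample, as log2 difference from the mean of the 9 rats, with the H rats to the left of the L rats. In fatty acid synthesis all 4 H rats (-0.56 to -0.03) lie below all 5 L rats (0.11 to 0.41), while in the other lists the groups overlap.

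The macrophage list, which was read for infiltrating cells, had 24 of 26 varying genes on the higher side with a median log2 fold change of 0.20. Of all probe sets, 61.2% were above 0 in the values as deposited. Under either other scaling 22 were higher, and the median was 0.13 without rat H15. Its mean level per rat was 0.04, 0.08, 0.28 and 0.09 in rats H12, H13, H15 and H16, against 0.03, 0.07, -0.32, -0.16 and -0.09 in rats L1 to L5. H12 lay between the values of L1 and L2, and rat L3 was the lowest. Cd163, the haemoglobin scavenger receptor of resident macrophages, was the 1 member without overlap (0.26 ± 0.07), where 1.97% of all genes were so separated, and 3 members had an unadjusted p under 0.05 on the higher side, against 4.38% of all genes. The other 2 were the lysosomal marker Cd68 (0.50 ± 0.20) and osteopontin Spp1 (0.79 ± 0.29). No T cell, NK cell or B cell marker of the marker lists varied.

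Collagen and matrix genes had 32 of 38 means on the higher side, 25 after median centring and 27 after a second quantile normalization, with a median of 0.08 that became -0.05 without rat H15. Of all probe sets, 61.2% were above 0 as deposited, 44.9% after median centring and 49.9% after a second quantile normalization. Sparc, a collagen-binding matrix protein, was the 1 member without overlap (0.23 ± 0.06), where 1.97% of all genes were so separated. Sparc and the gelatinase Mmp2 (0.30 ± 0.12) were the 2 members with an unadjusted p under 0.05 on the higher side, against 4.38% of all genes. All 4 varying endothelial markers had higher means, with overlapping groups. Kdr, the VEGF receptor (0.28 ± 0.09), and von Willebrand factor Vwf (0.35 ± 0.12) had an unadjusted p under 0.05, against 4.38% of all genes on that side. Mesothelial transcripts were highest in rat H15, and their part in the matrix values was not tested.

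Genes that answer to stress or to the time of day varied between rats of 1 diet. Among immediate early genes, 18 of 20 had lower means in the H-group (median -0.21), but none had an unadjusted p under 0.05. Their mean level per rat was -0.36, -0.76, 0.06 and 0.43 in the H rats, against 0.13, 1.12, -0.80, -0.26 and 0.44 in the L rats, and the median became -0.01 without rat L2. The 13 varying clock genes had 8 higher and 5 lower means (median 0.02), and 6 higher and 7 lower under either other scaling. Their mean level per rat ran from -0.14 to 0.23 in the H rats and from -0.16 to 0.10 in the L rats. Of them, 3 had an unadjusted p under 0.05, all on the lower side, where 2.68% of all genes had one. Npas2, a partner of Bmal1, was at 7.41 to 7.77 in the H rats and just above, at 7.77 to 8.07, in the L rats (-0.36 ± 0.09). The others were Bmal1 itself (-0.36 ± 0.12) and the repressor Nfil3 (-0.71 ± 0.25).

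Brown fat and liver of the same rats were placed beside WAT. No difference between tissues was tested, since each tissue was normalized apart and by another method, and the tissues share their rats. Over the 3355 genes that varied in WAT, the median log2 fold change was 0.03 in WAT, 0.00 in BAT and 0.01 in the liver, and 37.9%, 47.3% and 45.4% of genes lay on the lower side in these tissues in that order. At an adjusted p under 0.05, limma called no probe set in BAT and 11 (0.0354%) in the liver. At an unadjusted p under 0.05 it had 1387 probe sets (4.47%) in BAT and 2809 (9.05%) in the liver, with 1.81% and 4.51% on the lower side.

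The fatty acid synthesis genes had mostly lower means in both fats. In BAT 9 of the 10 genes had a lower mean in the H-group, each with an unadjusted p under 0.05, and the median log2 fold change was -0.68. In the liver the same genes split, with 6 higher and 4 lower means and a median of 0.04. The 4 lower ones were Elovl6 (-0.41 ± 0.15), Acaca (-0.23 ± 0.09 on its brightest probe set), Slc25a1 (-0.16 ± 0.09) and Aacs (-0.03 ± 0.07). An unadjusted p under 0.05 was reached by 2 on the higher and 2 on the lower side. Scd had a log2 fold change of -5.05 ± 0.69 in WAT, -1.55 ± 0.26 in BAT and -2.71 ± 0.61 in the liver. Fasn had -1.15 ± 0.24, -0.45 ± 0.17 and 0.16 ± 0.09 in the same order of tissues. Pnpla3 had -1.30 ± 0.22 in WAT and -1.55 ± 0.42 in BAT. In the liver it had 0.03, among the 6 higher means, at mean log2 levels of 2.6996 (H-group) and 2.6706 (L-group). Scd stood at 8.4972 and 11.2093 there. A level as low as that of Pnpla3 may leave no room for a lower value, so its 0.03 cannot show a contrast between tissues. The TG synthesis genes, with a median of -0.33 in WAT, had -0.10 in BAT and -0.12 in the liver.

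Cish was on the lower side in all 3 tissues, with log2 fold changes of -1.57 ± 0.26 in WAT, -1.49 ± 0.43 in BAT and -0.82 in the liver, and Bcl6 was on the higher side, with 1.72, 1.12 and 2.0. Rgs3 was at -1.23 ± 0.27 in WAT, -1.36 ± 0.45 in BAT and -0.52 ± 0.45 in the liver. Oxidative phosphorylation genes, with a median of -0.02 in WAT, lay on the higher side in BAT for all 26 genes (median 0.13). Cholesterol synthesis genes, with a median of -0.03 in WAT, were all on the lower side in BAT (median -0.65) and all on the higher side in the liver (median 0.28).

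**Figure D5:**
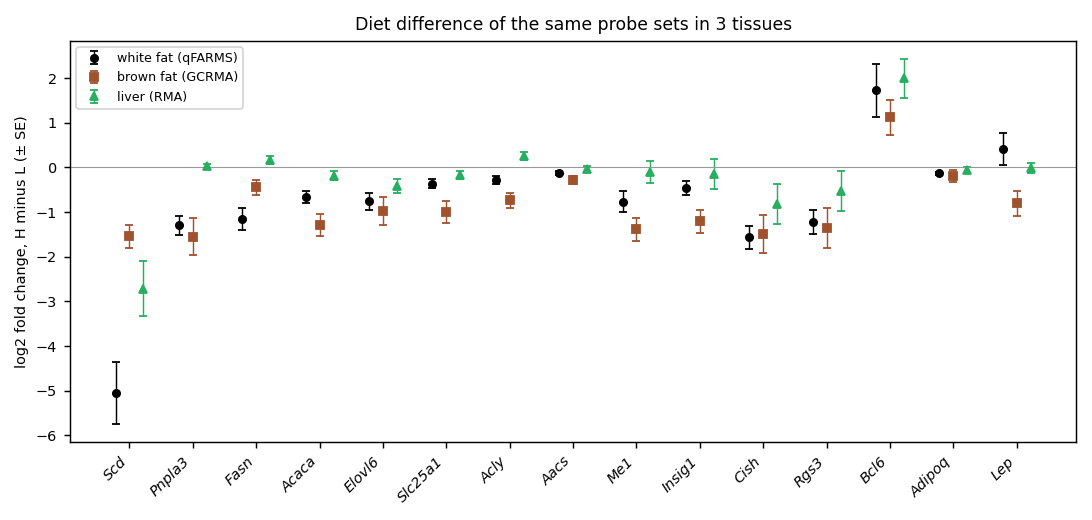
Log2 fold change of the H-group over the L-group, with SE, for genes of lipogenesis and of STAT5 signalling in WAT, BAT and liver, each tissue normalized apart. Scd, Cish and Bcl6 keep their side of 0 in all 3 tissues, as do Acaca, Elovl6, Slc25a1, Aacs, Rgs3 and Adipoq. The liver values of Aacs and Adipoq are smaller than their SE. Pnpla3 lies at -1.30 and -1.55 in the fats and at 0.03 in the liver. Its mean liver level was low (log2 2.6996 in the H-group and 2.6706 in the L-group), so a lower value may not show there.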

How the data were processed

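Gene expression was measured with 1 Affymetrix rat genome array per rat and tissue. The authors deposited log2 values, quantified with quantile-normalized factor analysis summarization (qFARMS) for WAT, GCRMA for BAT and RMA for the liver, each tissue normalized on its own. qFARMS gives a probe set whose probes share no variation over the arrays practically 1 constant value. This value can be high, as for Fabp4 (13.8), so a constant gene is not an absent one. Only probe sets with a range above 0.01 log2 units were therefore tested in WAT. No further normalization was applied. There is no count of reads, and the number of arrays limits the precision.

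The difference of the H-group minus the L-group was fitted with limma 3.58.1 in R 4.3.3 over the 9 WAT arrays, with Benjamini-Hochberg adjustment over the 5007 varying probe sets. The 57 control probe sets were left out. BAT (9 arrays) and liver (13 arrays, the M-group included) were fitted apart over 31042 probe sets. Rank products were computed over all pairs of H and L arrays with permutations within arrays. The scripts were checked on simulated data.

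Probe sets were named from the platform annotation, and a gene is given on its brightest varying probe set, or on the one that met the rule for the leading genes. Named genes were the separated genes with the smallest p in each direction, up to 5 members of each list by p, and all members of the lipid lists, some being left out for length. Cbr1, Sgcb, RT1-T24-3, Sema3e and the list on growth hormone and STAT5 were chosen after their values were seen. The members and lists were chosen with earlier results of these data known. Promoter windows came from RefSeq (GRCr8).

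Alternatives were rank products, other thresholds and filters, a trended robust fit, array weights, median centring, a second quantile normalization, each rat left out, and the mean of a gene's probe sets.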

Additional observations from a re-analysis of the deposited data

Results flagged for a closer look

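In 12 of 170 groups of rats examined (70 genes, 14 lists and the array correlations, in each diet), 1 rat lay far from the others of its diet, where chance gives about 1 in 20 groups. In the H-group rat H12 was the far one for Taldo1 (10.9655), Cish (7.3054), Dgat1 (10.9656) and Hk1 (8.6411), on the side of the L rats for each of these genes. The others in the H-group were rat H13 for Bmal1 (7.705), rat H15 for Irf1 (9.5497) and rat H16 for Itgb2 (8.8765). In the L-group the far rats were L5 for Bcl6 (10.2004), L4 for Igf2 (8.8691) and Mycbp2 (10.9618), L1 for Agpat3 (9.5699) and L3 for Eci1 (11.0583). All are log2 levels. No rat was flagged for a list or for the array correlations, rat H15 included.

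Mccc2 was lower in WAT of every H rat than of every L rat (log2 fold change -0.51) and higher in the liver of every H rat than of every L rat (0.1574). The difference between the tissues was not tested.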

How the results depend on the processing

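With the values as deposited, limma called 0 probe sets at an adjusted p under 0.05 (358 at an unadjusted p under 0.05), and it also called 0 with each rat left out, an adjusted p under 0.01, array weights, a trended robust fit, only the brighter probe sets or either other scaling. Rank products called 39 (12 higher, 27 lower), and 572 (235 higher, 337 lower) when the constant probe sets entered, an alternative chosen after seeing the data. An unadjusted p under 0.01 took 111 (59 higher, 52 lower). With all probe sets in the limma fit 17 were called (6 higher, 11 lower), all of them constant ones with log2 fold changes of at most 5.84e-06 in size. With a range above 0.5, 1 was called, Scd on the lower side, with an adjusted p of 0.0143. Fewer probe sets were tested there, and the range over both diets lets the difference itself decide which enter, so this call is no support. The excess of the distance between diets ran from -0.000198 (without rat L2, exact p = 0.457) to 0.00715 (without rat H12, exact p = 0.0357) with each rat left out, and the cause was not tested.

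Srebf1 changed sign, its log2 fold change being 0.0376 without rat H15 and as low as -0.142 with another rat left out. The other 69 of the 70 genes carried through the alternatives kept their sign under each one run, 17 of the 70 being called by rank products. These 70 are not all the genes named above. Dgat2, Scd2, Cfd and Igf1, with log2 fold changes near 0, were among those not carried through. All 168 medians of 14 lists under alternatives stayed within 1 SD between rats of the value as deposited, but medians near 0 changed sign with a rat left out: desaturation and elongation (-0.127 to 0.0712), adipokines (-0.0825 to 0.0529), mitochondrial beta-oxidation (-0.122 to 0.0278), oxidative phosphorylation (-0.0838 to 0.0072), collagen and matrix (-0.0492 to 0.190) and insulin and IGF signalling (-0.0446 to 0.0031). No paired analysis was possible because the H rats and the L rats share no number in WAT. Precision is limited by 4 and 5 arrays and by the constant probe sets, which cover most of the array. It is also limited by the spread among the H rats, of which H15 had the lowest mean correlation over the varying probe sets.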

Other observations

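A few genes with large mean differences did not follow the diet as a group but split the rats within it. They were chosen after their values were seen. Sgcb, a sarcoglycan of the cell membrane, stood at 6.87 and 6.91 in rats H12 and H16 and at 9.78 and 9.89 in H13 and H15, against 9.65 to 10.20 in the L rats, while its other probe sets had log2 fold changes of 0.07 and -0.01. RT1-T24-3, a class I histocompatibility gene, stood at 9.96, 10.31 and 10.76 in H12, H13 and H15 and at 7.87 in H16, against 10.14 in L1 and 6.65 to 7.79 in the other L rats. Its probes may also bind transcripts of near-identical relatives, so its level is uncertain. Cbr1, a carbonyl reductase, ran from 7.98 to 10.98 in the H rats, against 10.57 to 11.71 in the L rats (log2 fold change -1.51, and -0.98 without rat H16). Pla2g2a, a secreted phospholipase, ran from 8.11 to 10.86 in the H rats, against 9.38 to 11.02 in the L rats (-0.99, and -0.56 without rat H12). Rank products called Sgcb, Cbr1 and Pla2g2a lower and RT1-T24-3 higher, whereas limma gave each an adjusted p of 0.61 or more.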
